A study of Mus musculus with 6 samples.

Results

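Acini of Dkk3-null mice (DD) were compared with acini of wild-type mice (WT) at day 3 of culture in an assay of acinar-to-ductal metaplasia (ADM). The comparison rests on 4 of the 6 RNA-seq samples of the series, 2 WT and 2 DD cultures that received no recombinant protein, and it was described over the 12698 protein-coding genes that passed a filter on low counts, of 21797 in the count table. Members were taken by label alone, as the DD columns without recombinant DKK3 (rDKK3) and the WT columns of the raw count table. The remaining 2 samples were DD acini given rDKK3. They entered the model only to help estimate the spread between replicates. The comparison asks which acinar transcripts differ when the secreted protein cannot be made.

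Per the labels, the WT acini came from mice aged 10 and 11 weeks (WT 1 and WT 2) and the DD acini from mice aged 12 and 13 weeks (DD 1 and DD 2), so genotype and labelled age cannot be told apart. The labelled ages rise by 1 week from sample to sample, from 10 to 15 weeks over the 6 samples, and no value used here checks them. All 4 cultures were primary pancreatic acinar cells kept in Waymouth medium with 10% FBS, trypsin inhibitor at 0.1 mg/ml and dexamethasone at 10 µg/ml. The knockout is carried by every cell of the mouse, so stromal cells that survive acinar isolation lack the protein too. The null allele lacks the exon that encodes the signal sequence, and an intracellular isoform that starts further along the gene is left in place. WT 2 was labelled female and the others male, yet the summed level of 4 Y-linked genes, in counts scaled to the library's total (CPM), was 141 in WT 2 and between 120 and 147 in the other 3 libraries. Xist, a transcript of female cells, had 16 counts in WT 2 and 0 in the other 3 libraries. The source of these Xist counts was not tested. The labels do not say whether the 2 cultures of a genotype came from separate mice, so p-values measure the spread between these samples, which may be technical.

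Acinar cells make and store digestive enzymes in zymogen granules, and their identity is held by transcription factors such as PTF1A and MIST1. In ADM, which follows injury, acinar cells lose enzyme expression and take on keratin and duct features, and growth factor signalling through ERK is one of its known drivers. Metaplastic acinar cells can also take on gastric mucous features. DKK3 is a secreted glycoprotein of the Dickkopf family, whose founding members block the Wnt co-receptors LRP5 and LRP6.

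Library totals ranged from 12018473 to 19750401 counts over the 4 libraries. Dkk3 itself (ENSMUSG00000030772.7, minus strand of chromosome 7) had 10 and 1 counts in WT and 11 and 9 in DD and did not pass the filter. Its gene count cannot separate the deleted exon from the rest, so it does not check the labels. Acinar markers summed to between 83173 and 142970.5 CPM and ductal markers to between 1500.2 and 2443 CPM. Apart from these, markers of fibroblasts and stellate cells stood out in DD 2, with a summed level of 1932 CPM beside 425 and 247 in WT and 263 in DD 1. Macrophage markers were high in WT 1 and DD 2. Log2 fold changes and list medians that leaving out DD 2 brought closer to 0 by over 1.5 times are therefore given with and without that library.

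Of the 14738 genes tested, edgeR's quasi-likelihood test with Benjamini-Hochberg adjustment called 6 genes, or 0.0407%, and 4 of these are not protein coding. Among the 12698 coding genes 2 were called, or 0.0158%, Acsm3 as higher and Selenbp2 as lower in DD. "Rose" and "fell" are used below for these alone. For the other genes the level in each library is given in CPM, with the log2 fold change of DD against WT, its standard error (SE) and whether the libraries of the groups overlapped. All coding genes serve as the background for the list counts below. At an unadjusted p under 0.05, 4.59% of coding genes were higher and 4.15% lower in DD (1110 genes in all). Both DD libraries lay above both WT libraries for 18.5% of coding genes and below them for 19.3%, and the median log2 fold change of coding genes was 0.028.

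Differences also moved with transcript length. Coding genes were split by the length of their canonical transcript into 5 bins of equal size. In the shortest bin (up to 1947 bases) the median log2 fold change was -0.22, and 51 genes were higher and 265 lower at an unadjusted p under 0.05. In the longest bin (from 5643 bases) the median was 0.24, with 222 higher and 22 lower. The trend was as large within a genotype, where the medians ran from -0.23 in the shortest to 0.31 in the longest bin for WT 2 minus WT 1, and from 0.23 to -0.19 for DD 2 minus DD 1. List medians are therefore also given from a second fit, chosen after seeing the data, in which the trend of log2 CPM on transcript length was removed from each library.

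**Figure D1:**
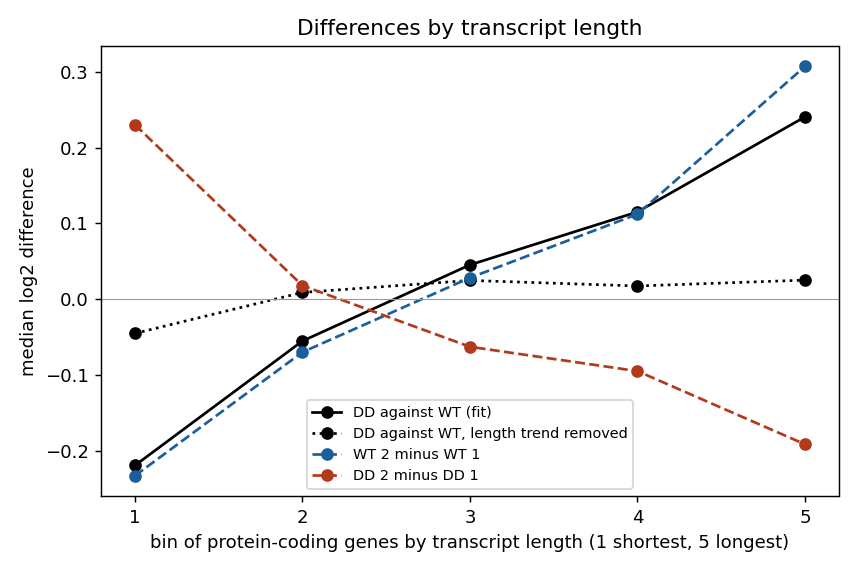
Median log2 difference (y axis) in each of 5 equal bins of coding genes by transcript length (x axis, 1 shortest). The solid black line is the fitted log2 fold change of DD against WT, the dotted line the same with the length trend removed, and the dashed lines are WT 2 minus WT 1 (blue) and DD 2 minus DD 1 (red). The solid line climbs from -0.22 to 0.24 and the dotted line stays between -0.045 and 0.025.

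Selenbp2 (ENSMUSG00000068877.13, selenium-binding protein family, chromosome 3, 94600863 to 94611720, plus strand, GRCm39) stood at 30.9 and 35.5 CPM in WT and 1.89 and 3.00 in DD. Both DD libraries were far below both WT libraries, and the gene fell in DD (log2 fold change -3.77, SE 0.30, adjusted p 0.0101). Its neighbour and paralog Selenbp1 (chromosome 3, chosen after its values were seen) stood at 918 and 1024 CPM in WT and 1728 and 1180 in DD, the opposite order, with a log2 fold change of 0.58 (SE 0.26). Selenbp1 took many more counts than Selenbp2 in every library, from canonical transcripts of 1879 and 1719 bases, so reads that fit both copies matter more for Selenbp2, and the pair is shown here for that reason. The transcripts of the pair differ at 25 of 1719 aligned bases (98.5% identity), and 869 of 1670 windows of 50 bases in Selenbp2 occur unchanged in Selenbp1. The stretch of exon 5 with the most differences is printed below, with the differing bases in capitals. It lies within the coding sequence of each gene, at chr3:94605379-94605438 in Selenbp2 and chr3:94845295-94845354 in Selenbp1 (plus strand, GRCm39, GENCODE M39).
Selenbp2: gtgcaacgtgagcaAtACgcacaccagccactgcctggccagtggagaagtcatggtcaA
Selenbp1: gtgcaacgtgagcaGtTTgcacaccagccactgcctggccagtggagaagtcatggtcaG
Gene-level counts cannot show how reads from such shared windows were assigned, so the count of Selenbp2 is uncertain as a level, while both DD libraries were below both WT libraries. The call was lost without WT 1, without WT 2 and without DD 1, with adjusted p of 0.127, 0.103 and 0.0983, and held without DD 2 (adjusted p 0.0414).

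Acsm3 (ENSMUSG00000030935.16, a mitochondrial medium-chain acyl-CoA synthetase, chromosome 7, 119360146 to 119386736, plus strand) was at 2.65 and 3.65 CPM in WT and 21.7 and 18.1 in DD. It rose in DD (log2 fold change 2.64, SE 0.25, adjusted p 0.0223), and without any 1 of the 4 libraries its log2 fold change stayed between 2.46 and 2.91, although the adjusted p then was 0.226 without WT 1, 0.127 without WT 2, 0.123 without DD 1 and 0.0668 without DD 2, above the threshold. Eri2, which lies on the opposite strand and overlaps Acsm3 (chosen after its values were seen), stood at 4.71 and 6.46 CPM in WT and 12.2 and 10.9 in DD. Counting was strand-specific, and neither gene overlapped between the groups. Acsm3 lies 7.60 Mb from Dkk3. Within 10 Mb of Dkk3, 114 other coding genes were tested, of which 10 were higher and 5 lower at an unadjusted p under 0.05 (8.77% and 4.39%), and whether sequence of the strain that carries the null allele differs there was not tested.

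Beyond these, the 12 coding genes with the smallest p in each direction (average log2 CPM of at least 2, no overlap) are given as leading genes, among which Acsm3 and Selenbp2 rank first. Since they were chosen by their difference, their lack of overlap is a condition and not a result. DESeq2, run as an alternative on the same counts, called all 12 of the higher and 10 of the lower genes at an adjusted p under 0.05. It called 65 coding genes in all, and the leading genes were chosen by their p, so these calls are no separate support.

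Several of the leading higher genes act at the cell surface or at junctions. Sema3e, a secreted semaphorin, was at 1.47 and 2.67 CPM in WT and 10.4 and 10.8 in DD (log2 fold change 2.32, SE 0.32). Lmo7, a LIM protein of the actin cytoskeleton and junctions, was at 15.5 and 17.6 CPM in WT and 32.9 and 38.1 in DD (log2 fold change 1.10, SE 0.16). In both genes the 2 DD libraries lay close together, above both WT libraries. Ildr1, a protein of tricellular junctions, was at 40.4 and 42.4 CPM in WT and 79.8 and 79.5 in DD (log2 fold change 0.94, SE 0.14), with the 2 libraries of each group close together. The adhesion receptor gene Adgrg2 was at 9.14 and 7.59 CPM in WT and 19.4 and 19.2 in DD (log2 fold change 1.21, SE 0.19), and the tetraspanin partner Ptgfrn at 42.2 and 41.02 CPM in WT and 74.1 and 72.3 in DD (log2 fold change 0.81, SE 0.15). DD 1 and DD 2 were alike for these, unlike for the fibroblast markers. Ahnak, a very large scaffold protein, was at 26.6 and 37.2 CPM in WT and 72.5 and 81.95 in DD (log2 fold change 1.27, SE 0.23, or 0.86 with the length trend removed).

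Mucous genes formed another part of the leading set. Muc5ac, the gel-forming mucin of the stomach surface, was at 68.1 and 46.6 CPM in WT and 320.2 and 913 in DD (log2 fold change 3.43, SE 0.54). Gcnt3, a mucin O-glycan branching enzyme, was at 39.8 and 33.5 CPM in WT and 77.2 and 113 in DD (log2 fold change 1.38, SE 0.22). DD 2 was the highest library for both, and without DD 2 the log2 fold changes were 2.48 and 1.08. The intracellular protease inhibitor gene Serpinb9b was also highest in DD 2, with 8.35 and 13.8 CPM in WT and 33.2 and 67.9 in DD (log2 fold change 2.17, SE 0.39). Phlda1 and Plaur complete the higher set and are given with the ERK genes below.

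The leading lower genes included receptors of innate defence, signalling subunits and proteins of ion transport. Glb1l2, a beta-galactosidase-like protein, was at 16.1 and 18.7 CPM in WT and 6.86 and 6.17 in DD (log2 fold change -1.42, SE 0.19). Pglyrp1, which binds bacterial peptidoglycan, was at 14.3 and 23.5 CPM in WT and 4.83 and 5.47 in DD (log2 fold change -1.88, SE 0.30), and Tlr2, the receptor for bacterial lipoproteins, at 9.43 and 10.7 CPM in WT and 3.88 and 5.06 in DD (log2 fold change -1.17, SE 0.23). For all 3 genes both DD libraries were well below the lower WT library. Fxyd6, a regulator of the sodium pump, was at 93.3 and 100.5 CPM in WT and 54.3 and 53.8 in DD (log2 fold change -0.84, SE 0.16). Ramp1, a subunit of the CGRP receptor, was at 48.5 and 42.2 CPM in WT and 24.9 and 27.6 in DD (log2 fold change -0.79, SE 0.15), and Gna14, a G protein subunit that couples receptors to phospholipase C, at 15.03 and 10.96 CPM in WT and 6.15 and 5.35 in DD (log2 fold change -1.17, SE 0.25). Cldn10, a claudin that forms paracellular ion channels, was at 94.01 and 64.5 CPM in WT and 37.2 and 38.5 in DD (log2 fold change -1.07, SE 0.23), with WT 1 well above WT 2. Tm4sf4, a tetraspan protein of liver and pancreas, was at 201 and 223 CPM in WT and 106 and 114 in DD (log2 fold change -0.95, SE 0.20). In these 5 genes the 2 DD libraries lay close together. Klk1b5, a tissue kallikrein from a family of near-identical copies and hence uncertain, was at 39.7 and 38.1 CPM in WT and 25.03 and 23.5 in DD (log2 fold change -0.68, SE 0.14). The transcripts 4921504E06Rik and Tmem254 were at 17.7 and 11.3 CPM in WT and 3.46 and 5.76 in DD (log2 fold change -1.65, SE 0.32) and at 185 and 149.7 CPM in WT and 89.96 and 101 in DD (log2 fold change -0.81, SE 0.18). Median transcript length was 5232 bases over the 12 higher genes and 2068 over the 12 lower, and with the length trend removed the log2 fold changes of the 24 kept their direction.

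**Figure D2:**
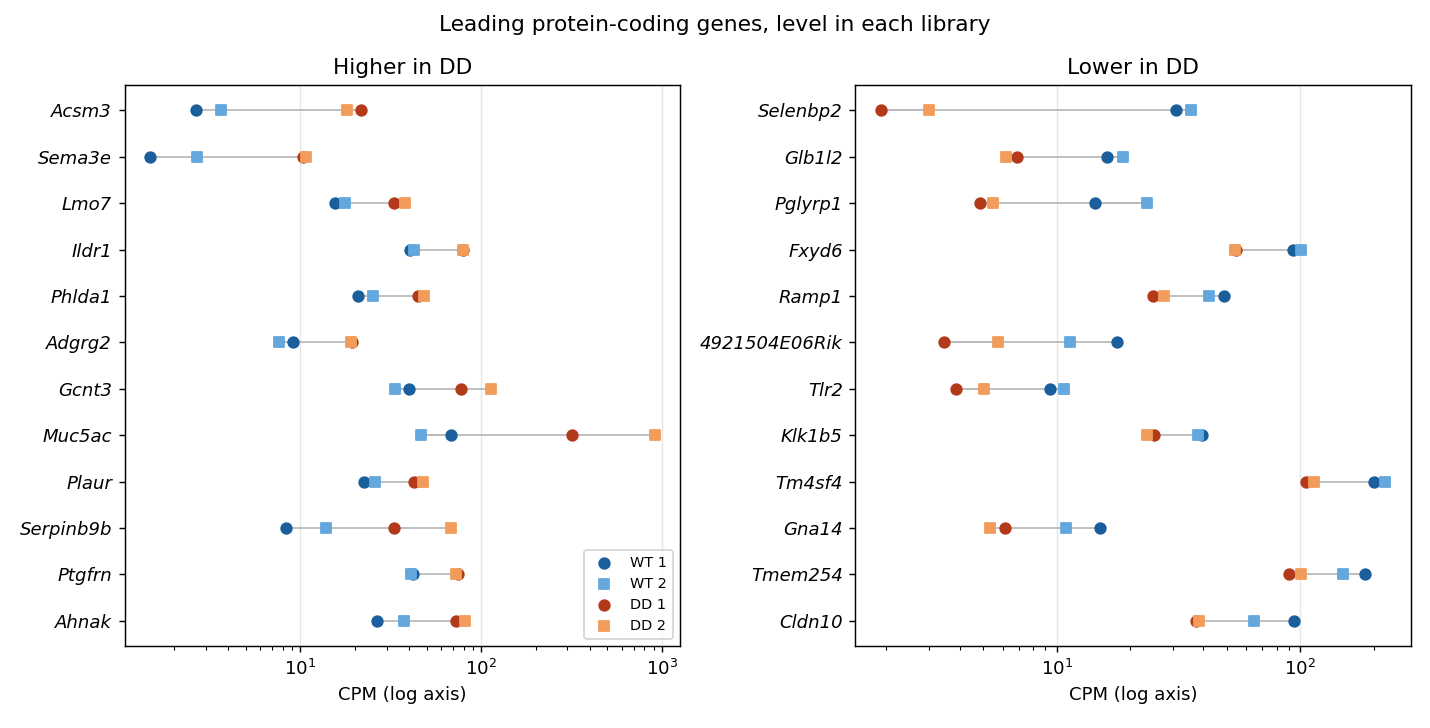
CPM on a log axis (x axis) of the 12 leading higher and 12 leading lower coding genes in each library. Dark and light blue are WT 1 and WT 2, dark red and orange are DD 1 and DD 2. Groups do not overlap in any row, by the rule that chose the genes, and Muc5ac shows the widest gap between DD 1 (320.2 CPM) and DD 2 (913 CPM).

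Digestive enzyme transcripts were lower in DD. Of 27 enzyme genes tested, 0 were higher and 12 lower (44.4%, against 4.15% of coding genes) at an unadjusted p under 0.05. Without overlap, 16 were lower (59.3%, against 19.3% of coding genes) and none higher. The median log2 fold change was -0.70, and -0.55 with the length trend removed. Rnase1, the pancreatic ribonuclease, was at 753 and 559 CPM in WT and 327 and 399.6 in DD (log2 fold change -0.85, SE 0.21). The lipase-related gene Pnliprp1 was at 14937 and 11573 CPM in WT and 7565 and 6624 in DD (log2 fold change -0.90, SE 0.26). Both DD libraries lay below both WT libraries for each. The elastase gene Cela3b, named after its values were seen, had the same order, at 14145 and 10637 CPM in WT and 6951 and 7658 in DD (log2 fold change -0.76, SE 0.24). Ctrb1, which took the most counts of the list, overlapped between the groups, at 66739 and 51952 CPM in WT and 54192 and 40344 in DD. WT 1 was the highest library for most enzymes, and the list score (the mean over genes of log2 CPM minus each gene's mean over the 4 libraries) was 0.64 in WT 1, 0.021 in WT 2, -0.38 in DD 1 and -0.28 in DD 2. Without WT 1 the median was -0.35. All 27 together took 20.1% and 17.98% of counts in WT and 16.5% and 14.1% in DD. In bulk samples fewer acinar cells and less enzyme RNA per cell cannot be told apart, and trypsin and amylase genes are families of near-identical copies whose counts are uncertain.

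The acinar transcription factors did not share this order. Among 15 factors, 1 was higher and 1 lower at an unadjusted p under 0.05, with a median of 0.17, or 0.09 with the length trend removed, 0.03 without WT 1 and 0.055 without DD 1, while without DD 2 it was 0.29. Ptf1a, which drives enzyme genes (chosen after its values were seen), stood at 119 and 219.9 CPM in WT and 242 and 209 in DD, and the secretory factor gene Xbp1 at 1376 and 1055 CPM in WT and 1009.9 and 776 in DD (log2 fold change -0.45, SE 0.22, or -0.27 without DD 2). Mecom, a zinc finger factor induced in injured acini, was at 16.6 and 20.2 CPM in WT and 32.9 and 25.9 in DD (log2 fold change 0.67, SE 0.21) and Nupr1, a stress-induced chromatin protein, at 1652 and 1708 CPM in WT and 1056 and 1264 in DD (log2 fold change -0.53, SE 0.22), both without overlap. The REG proteins, secreted lectins of stressed acini, were lowest in DD 1, where Reg3b stood at 19629.9 CPM beside 67207 and 43249 in WT and 45679 in DD 2. The median of 6 Reg genes was -0.75, or -0.57 with the length trend removed, and it was -0.29 without DD 1, -0.40 without WT 1 and -1.47 without DD 2.

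Of the machinery that makes and exports enzymes, 40 genes of the ER translocon, glycosylation and vesicle coats had a median of -0.20. At an unadjusted p under 0.05, 1 was higher (2.5%, against 4.59% of coding genes) and 6 lower (15%, against 4.15%). Sec11c, a signal peptidase subunit, was at 126 and 113 CPM in WT and 58.5 and 87.4 in DD (log2 fold change -0.71, SE 0.21), while Sec23a, a vesicle coat subunit, was at 14.2 and 16.4 CPM in WT and 21.8 and 21.9 in DD (log2 fold change 0.51, SE 0.19), so members went in opposite directions. The list's median was -0.19 with the length trend removed, -0.044 without WT 1 and -0.35 without WT 2. Granule proteins were split as well. Cuzd1, a membrane protein of zymogen granules, was at 3273 and 2052 CPM in WT and 1393 and 1669 in DD (log2 fold change -0.80, SE 0.25), and Unc13b, which primes vesicles for fusion, was at 33.1 and 42 CPM in WT and 59.01 and 51.4 in DD (log2 fold change 0.55, SE 0.17, or 0.16 with the length trend removed). In the list of secretagogue receptors and calcium handling, 3 of 21 were higher (14.3%, against 4.59% of coding genes) and 1, Gna14 above, was lower at an unadjusted p under 0.05. With the length trend removed 1 was higher and 1 lower. Itpr3, the apical calcium release channel, was at 52.7 and 66.2 CPM in WT and 103 and 86.2 in DD (log2 fold change 0.67, SE 0.18, or 0.40 with the length trend removed). The calcium pump gene Atp2b1 was at 21.4 and 23.6 CPM in WT and 33.4 and 28.3 in DD (log2 fold change 0.46, SE 0.16, or 0.20 with the length trend removed). The cholecystokinin receptor gene Cckar overlapped, at 747 and 572 CPM in WT and 613 and 519 in DD.

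Several stress genes downstream of ATF4, the factor that answers amino acid and ER stress, were lower, as a list mainly in DD 2. Of 23 tested, 0 were higher and 7 lower (30.4%, against 4.15% of coding genes) at an unadjusted p under 0.05. The median was -0.27, and -0.25 with the length trend removed. Chac1, a glutathione-degrading enzyme, was at 40.6 and 39.8 CPM in WT and 26.2 and 20.6 in DD (log2 fold change -0.78, SE 0.19), the pseudokinase gene Trib3 at 51.6 and 45.1 CPM in WT and 34.97 and 25.2 in DD (log2 fold change -0.68, SE 0.20) and Psat1, of serine synthesis, at 136 and 109 CPM in WT and 88.2 and 88.9 in DD (log2 fold change -0.47, SE 0.16). All 3 were lower in both DD libraries. Without DD 2 the median was -0.062, and without DD 1 it was -0.41. The list score was -0.0094 in WT 1, 0.23 in WT 2, 0.079 in DD 1 and -0.30 in DD 2. Slc7a11, another member, overlapped, at 40.9 and 136 CPM in WT and 216 and 70.3 in DD. Of 26 unfolded protein response genes 2 were lower (7.69%, against 4.15% of coding genes) and none higher. Herpud1, of ER-associated degradation, was at 466 and 461 CPM in WT and 351 and 316 in DD (log2 fold change -0.48, SE 0.17).

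**Figure D3:**
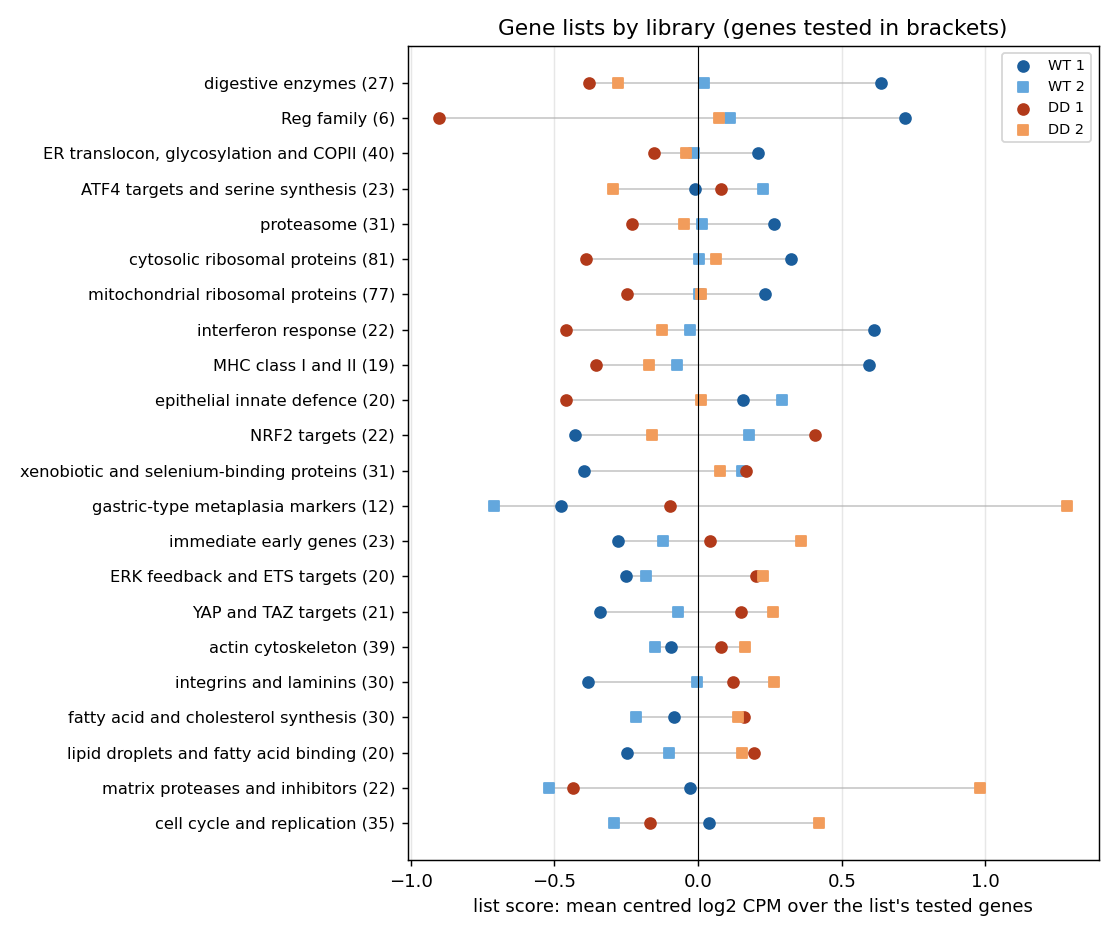
List score (x axis), the mean over a list's tested genes of log2 CPM minus the gene's mean over the 4 libraries, for 22 gene lists (y axis, number of genes tested in brackets). Dark and light blue are WT 1 and WT 2, dark red and orange DD 1 and DD 2. Actin, lipid synthesis and ERK lists have both DD libraries above both WT libraries, enzymes have both below, and gastric markers and matrix proteases rest mainly on DD 2, at 1.28 and 0.98.

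Some gastric-type mucous transcripts were higher in DD, to unequal degrees in DD 1 and DD 2. Of 12 such markers tested, 4 were higher (33.3%, against 4.59% of coding genes) and 1 lower (8.33%, against 4.15%) at an unadjusted p under 0.05. Next to Muc5ac, the trefoil peptide gene Tff1 was at 83.7 and 59.7 CPM in WT and 265 and 1226 in DD (log2 fold change 3.38, SE 0.72, or 1.89 without DD 2). Ctse, the gastric protease cathepsin E (chosen after its values were seen), stood at 159 and 100.2 CPM in WT and 225 and 272 in DD (log2 fold change 0.94, SE 0.27), and Cldn18, a claudin of stomach and lung, at 12.9 and 12.7 CPM in WT and 22.9 and 20.8 in DD (log2 fold change 0.77, SE 0.16). Both DD libraries were above both WT libraries for all 4. Gkn2 and Anxa10, named after their values were seen, were high in DD 2 alone, with Gkn2 at 0.197 and 0.0702 CPM in WT and 0.142 and 8.29 in DD and Anxa10 at 6.68 and 3.37 CPM in WT and 5.73 and 35.9 in DD. Tff2, in contrast, was at 313 and 501 CPM in WT and 382 and 351 in DD, and Wfdc2 was lower in DD, at 41.6 and 34.3 CPM in WT and 18.6 and 24.3 in DD (log2 fold change -0.82, SE 0.21). The list's median was 0.89, or 1.00 with the length trend removed, and 0.20 without DD 2.

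Of the ductal genes, Krt19 was at 910.4 and 519 CPM in WT and 695 and 799.6 in DD (log2 fold change 0.064, SE 0.27), where the groups overlapped, and Sox9, a factor of ducts and progenitors, at 12.8 and 13.6 CPM in WT and 16.2 and 14.1 in DD (log2 fold change 0.20, SE 0.19), a difference about the size of its SE. Among 26 duct and progenitor markers 2 were higher and 2 lower at an unadjusted p under 0.05 (7.69% each, against 4.59% and 4.15% of coding genes). The median was 0.032, or -0.017 with the length trend removed, -0.097 without WT 1 and 0.11 without WT 2. Tspan8, a tetraspanin of ducts, was at 55.5 and 39.4 CPM in WT and 63.8 and 122 in DD (log2 fold change 0.97, SE 0.33, or 0.43 without DD 2), highest in DD 2, and the secreted protein Ambp was at 45.6 and 81.3 CPM in WT and 30.7 and 40.04 in DD (log2 fold change -0.85, SE 0.27). Krt20, a keratin of gut surface epithelium, was at 24.8 and 9.83 CPM in WT and 32.8 and 45.9 in DD (log2 fold change 1.20, SE 0.38) and was the 1 keratin of 8 that was higher at an unadjusted p under 0.05. At junctions the tight junction scaffold gene Cgn was higher, at 43.6 and 57.1 CPM in WT and 94.5 and 88.7 in DD (log2 fold change 0.86, SE 0.20), while the claudin gene Cldn3 was lower, at 612 and 377 CPM in WT and 354 and 312 in DD (log2 fold change -0.57, SE 0.24) beside Cldn10 above. Of channels and transporters, 3 of 17 were higher (17.6%, against 4.59% of coding genes) and none lower. Among them was the chloride channel gene Ano1, at 39.2 and 54.1 CPM in WT and 79.2 and 67.5 in DD (log2 fold change 0.65, SE 0.19).

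ERK signalling is read out by genes that it induces and that feed back on it. Of 20 such genes, 5 were higher (25%, against 4.59% of coding genes) and 0 lower in DD at an unadjusted p under 0.05. The median was 0.36 (0.28 with the length trend removed). Phlda1, a pleckstrin homology protein induced by ERK, was at 20.9 and 25.1 CPM in WT and 44.5 and 48.4 in DD (log2 fold change 1.01, SE 0.15). Plaur, the urokinase receptor, was at 22.6 and 25.9 CPM in WT and 42.8 and 47.6 in DD (log2 fold change 0.90, SE 0.15). Dusp6, the phosphatase that inactivates ERK, was at 15.8 and 13.6 CPM in WT and 21.6 and 27.8 in DD (log2 fold change 0.75, SE 0.21). In none of these did the groups overlap, and the score of the list was 0.20 in DD 1 and 0.23 in DD 2, so both DD libraries showed it. Spry1 and Spry2, other feedback inhibitors, were at 6.58 and 6.81 CPM in WT and 5.06 and 6.53 in DD and at 5.21 and 4.85 CPM in WT and 4.78 and 5.23 in DD, so members of the list differed.

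Immediate early genes varied more. Fos was at 8.06 and 37.7 CPM in WT and 78.8 and 118 in DD (log2 fold change 2.08, SE 0.61) and Egr1 at 28.3 and 58.1 CPM in WT and 78.4 and 135 in DD (log2 fold change 1.30, SE 0.40). WT 1 was the lowest and DD 2 the highest library for both, and without WT 1 the log2 fold change of Fos was 1.40, while without DD 2 that of Egr1 was 0.85. Jun was at 55.8 and 85.9 CPM in WT and 80.6 and 80.95 in DD (log2 fold change 0.19, SE 0.21), which overlapped. Fosl1, a slower FOS family member, was at 5.99 and 3.79 CPM in WT and 8.66 and 9.46 in DD (log2 fold change 0.90, SE 0.28), and Atf3, a stress-induced factor, was lower, at 30.2 and 19.9 CPM in WT and 12.7 and 15.5 in DD (log2 fold change -0.83, SE 0.23). Over 23 genes 5 were higher (21.7%, against 4.59% of coding genes) and 1 lower (4.35%, against 4.15%) at an unadjusted p under 0.05. The median was 0.16, or 0.21 with the length trend removed and 0.04 without DD 2. Dusp1, a phosphatase that is also a glucocorticoid target, was at 34.6 and 50.01 CPM in WT and 64.1 and 81.5 in DD (log2 fold change 0.78, SE 0.23), and of 21 glucocorticoid response genes Fkbp5, a chaperone of the receptor, was at 239.8 and 272 CPM in WT and 399.6 and 375 in DD (log2 fold change 0.60, SE 0.19) while Mt1 overlapped at 5648 and 4396 CPM in WT and 4512 and 3917 in DD. The ligand gene Areg was at 2.36 and 3.58 CPM in WT and 7.33 and 11.3 in DD (log2 fold change 1.63, SE 0.32), the only member of 15 EGF family ligands and receptors at an unadjusted p under 0.05, and Egf itself was at 2.65 and 2.88 CPM in WT and 1.56 and 1.65 in DD (log2 fold change -0.79, SE 0.37).

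Targets of YAP and TAZ, co-activators that answer tension and cell spreading, were higher for 5 of 21 and lower for 1 at an unadjusted p under 0.05. These are 23.8% and 4.76%, against 4.59% and 4.15% of coding genes. Myof, a membrane repair protein, was at 18.8 and 20.6 CPM in WT and 41.2 and 52.6 in DD (log2 fold change 1.25, SE 0.24). The guanine exchange factor gene Dock5 was at 9.53 and 14.2 CPM in WT and 26.8 and 24.6 in DD (log2 fold change 1.11, SE 0.21) and the matricellular protein gene Ccn2 at 31.9 and 36.95 CPM in WT and 63.9 and 52.7 in DD (log2 fold change 0.76, SE 0.16). Each lacked overlap, and DD 1 and DD 2 were alike, unlike the fibroblast markers. The list's median was 0.27, or 0.14 with the length trend removed, and it was 0.69 without WT 2. The co-activator genes themselves were close between the groups, with Yap1 at 63.5 and 70.8 CPM in WT and 76.8 and 73.1 in DD and Wwtr1, which encodes TAZ, at 43.9 and 39.6 CPM in WT and 43.7 and 37.9 in DD.

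Of the other signalling pathways, 20 Wnt components and targets had 4 higher (20%, against 4.59% of coding genes) and none lower at an unadjusted p under 0.05. The co-receptor gene Lrp6 was at 38.9 and 45.5 CPM in WT and 66.8 and 57.2 in DD (log2 fold change 0.55, SE 0.16, or 0.26 with the length trend removed) and Lrp5 at 43.8 and 47.7 CPM in WT and 62.9 and 56.9 in DD (log2 fold change 0.39, SE 0.14, or 0.27). Ccnd2, a cyclin and Wnt target, was at 40.7 and 45.6 CPM in WT and 56.1 and 53.03 in DD (log2 fold change 0.34, SE 0.14, or 0.17 with the length trend removed). With the length trend removed 0 of the 20 Wnt genes were higher at an unadjusted p under 0.05, and the list's median was 0.18 in place of 0.30. Tgfbr2, the TGF-beta receptor, was at 36.9 and 36.8 CPM in WT and 48.9 and 54.97 in DD (log2 fold change 0.49, SE 0.16, or 0.24 with the length trend removed). Its feedback inhibitor Smad7 was at 7.86 and 9.97 CPM in WT and 12.8 and 19.8 in DD (log2 fold change 0.86, SE 0.35, or 0.52 without DD 2). They were the 2 of 27 TGF-beta and BMP genes at an unadjusted p under 0.05 (7.41%, against 4.59% of coding genes). Among 18 Notch genes only Numb, a Notch inhibitor, passed an unadjusted p of 0.05, at 11.8 and 15.4 CPM in WT and 20.6 and 16.99 in DD (log2 fold change 0.47, SE 0.20). Of 8 Hedgehog genes Boc, a co-receptor, did, at 1.87 and 1.76 CPM in WT and 3.22 and 3.82 in DD (log2 fold change 0.96, SE 0.32), and the transducer gene Smo was at 24.3 and 21.8 CPM in WT and 18.5 and 18.3 in DD (log2 fold change -0.32, SE 0.16).

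Actin regulators were higher in DD, to a like degree in both libraries. Of 39 tested, 9 were higher (23.1%, against 4.59% of coding genes) and none lower at an unadjusted p under 0.05. Without overlap, 16 were higher (41.0%, against 18.5% of coding genes) and none lower. Tln1, which links integrins to actin, was at 46.8 and 62.1 CPM in WT and 85.6 and 82.4 in DD (log2 fold change 0.62, SE 0.18), and Vil1, of brush border microvilli, at 15.03 and 15.3 CPM in WT and 28.6 and 26.7 in DD (log2 fold change 0.87, SE 0.25). Actb, the most counted member, was higher in DD without overlap, at 1210.5 and 904 CPM in WT and 1275 and 1347 in DD. The median was 0.24, or 0.18 with the length trend removed, and leaving out any 1 of the 4 libraries kept it between 0.15 and 0.29.

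Adhesion genes went with it. Of 30 integrins and laminins, 6 were higher (20%, against 4.59% of coding genes) and 1 lower (3.33%, against 4.15%) at an unadjusted p under 0.05. The median was 0.27, or 0.15 with the length trend removed and 0.62 without WT 2. Itga3, a laminin receptor chain, was at 121 and 91.9 CPM in WT and 178 and 166 in DD (log2 fold change 0.70, SE 0.18), the laminin chain gene Lamc1 at 39.3 and 64.8 CPM in WT and 95.8 and 89.4 in DD (log2 fold change 0.83, SE 0.24) and the hemidesmosome chain gene Itgb4 at 84.3 and 88.1 CPM in WT and 142 and 110 in DD (log2 fold change 0.55, SE 0.17). Itgb1, the common partner chain, was at 464 and 419.7 CPM in WT and 453 and 418 in DD and overlapped. Matrix proteases and inhibitors differed chiefly in DD 2. Mmp2 was at 4.42 and 1.19 CPM in WT and 3.98 and 31.9 in DD and Lox, a collagen cross-linking enzyme, at 40.97 and 13.4 CPM in WT and 41.5 and 188 in DD, both products of fibroblasts as well. Mmp7, an epithelial protease, was lower in both DD libraries, at 327 and 314 CPM in WT and 86.3 and 207 in DD (log2 fold change -1.13, SE 0.36). The median of this list of 22 was 0.82, or 0.86 with the length trend removed, and -0.13 without DD 2.

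Genes of fatty acid and cholesterol synthesis, which SREBP factors induce together, were higher in both DD libraries. Of 30 tested, 8 were higher (26.7%, against 4.59% of coding genes) and none lower at an unadjusted p under 0.05. Without overlap, 16 were higher (53.3%, against 18.5% of coding genes) and 0 lower. Acaca, which makes malonyl-CoA, was at 8.64 and 10.96 CPM in WT and 16.7 and 13.3 in DD (log2 fold change 0.61, SE 0.21). The fatty acid synthase gene Fasn was at 57.96 and 77.8 CPM in WT and 113 and 96.5 in DD (log2 fold change 0.63, SE 0.22). DD 1 was the highest library for both. Hmgcs1, of the mevalonate pathway (chosen once its values were known), stood at 66.9 and 72.6 CPM in WT and 91.6 and 93.8 in DD (log2 fold change 0.41, SE 0.17), with the 2 libraries of each group close together. Scd1, the stearoyl-CoA desaturase, went against the list and overlapped, at 158 and 55.9 CPM in WT and 100.2 and 74.1 in DD. The median was 0.29, or 0.25 with the length trend removed, and 0.18 without WT 2. Without DD 2 the median was 0.27, and 2 of the 30 were higher at an unadjusted p under 0.05. With the length trend removed the log2 fold changes of Acaca and Fasn, which have long transcripts, were 0.33 and 0.32.

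The 250 bases upstream of the canonical start of these genes were searched on either strand for a sterol regulatory element, TCACNCCAC. It was found in 4 of 30 genes of the list (13.3%) and in 1.12% of 21770 coding genes. A match describes the letters in this window only.

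Of 20 lipid droplet and fatty acid binding genes, 6 were higher (30%, against 4.59% of coding genes) and none lower at an unadjusted p under 0.05. Dgat2, which makes triglyceride, was at 43.7 and 45.1 CPM in WT and 95.5 and 68.8 in DD (log2 fold change 0.89, SE 0.19). The binding protein gene Fabp5 was at 133 and 112 CPM in WT and 207 and 310.4 in DD (log2 fold change 1.08, SE 0.26), and Fabp5 has processed copies elsewhere in the genome with which reads may be shared. Plin2, the main coat protein of the droplets, was at 975 and 1009 CPM in WT and 1148 and 808 in DD and overlapped. By the sign of the log2 fold change, 12 of the 20 genes were higher and 8 lower. The list's median was 0.10, or 0.098 with the length trend removed, -0.035 without DD 1 and 0.20 without DD 2. Pparg and Lpl, from the adipocyte list (chosen after their values were seen), were at 15.5 and 12.9 CPM in WT and 20.5 and 20.99 in DD (log2 fold change 0.55, SE 0.19) and at 98.04 and 158 CPM in WT and 191 and 197 in DD (log2 fold change 0.60, SE 0.24), higher in both DD libraries, whereas the defining adipocyte genes Adipoq and Cfd did not pass the filter. Next to Acsm3, Acsbg1, another acyl-CoA synthetase, was at 0.295 and 0.773 CPM in WT and 1.70 and 1.65 in DD (log2 fold change 1.58, SE 0.50). Oxidation genes did not share this order. Of 28 fatty acid oxidation and peroxisome genes none was higher and 1 lower at an unadjusted p under 0.05, with Hadh, a mitochondrial oxidation enzyme, at 159.7 and 154 CPM in WT and 116 and 123 in DD (log2 fold change -0.39, SE 0.16).

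In central metabolism single steps differed rather than whole pathways. Hk1, the first enzyme of glycolysis, was at 51.5 and 53.9 CPM in WT and 86.6 and 86.1 in DD (log2 fold change 0.71, SE 0.15), and Pfkfb3, which sets the glycolytic rate, was at 67.7 and 66.8 CPM in WT and 94.5 and 86.5 in DD (log2 fold change 0.43, SE 0.14). Aldoc was lower, at 19.1 and 12.99 CPM in WT and 8.94 and 9.05 in DD (log2 fold change -0.83, SE 0.24), as was the mitophagy receptor gene Bnip3, at 400.5 and 258 CPM in WT and 161 and 223 in DD (log2 fold change -0.78, SE 0.29). Of 30 glycolysis and hypoxia genes 3 were higher (10%, against 4.59% of coding genes) and 2 lower (6.67%, against 4.15%) at an unadjusted p under 0.05. The median was -0.045, or 0.054 with the length trend removed, 0.21 without WT 1, -0.16 without WT 2, -0.10 without DD 1 and 0.051 without DD 2. Pcx, which feeds pyruvate into the citric acid cycle, was at 87.1 and 80.1 CPM in WT and 120.3 and 118 in DD (log2 fold change 0.51, SE 0.17), and Idh2, of the same cycle, at 79.2 and 89.2 CPM in WT and 60.2 and 60.5 in DD (log2 fold change -0.48, SE 0.15). None of 11 mitochondrially encoded genes passed an unadjusted p of 0.05. The 40 nuclear genes of the respiratory chain, mostly short, had a median of -0.17, and -0.005 with the length trend removed, -0.042 without WT 1, -0.27 without WT 2, -0.035 without DD 1 and -0.32 without DD 2. Gamt, the last enzyme of creatine synthesis, was at 26.4 and 21.1 CPM in WT and 12.8 and 12.3 in DD (log2 fold change -0.91, SE 0.24), the clearest of 28 amino acid and creatine genes.

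NRF2 induces genes of glutathione synthesis and detoxification. For 15 of 22 NRF2 targets both WT 2 and DD 1 lay above both WT 1 and DD 2. The share of all coding genes with this order was not counted. Across all 14738 genes tested, same-numbered WT and DD libraries deviated in opposite directions (Pearson's r -0.387), so the order is not shown to be particular to this list. Other NRF2 targets had another order, among them Nqo1, a quinone reductase, at 19.6 and 54.8 CPM in WT and 56.2 and 63.96 in DD and Osgin1, a stress-induced growth inhibitor, at 79.3 and 53.03 CPM in WT and 47.5 and 39.5 in DD (both named after their values were seen). Gstm1 (named, like Gstm3 and Gclc, after its values were seen) was at 135 and 991 CPM in WT and 1729 and 459.6 in DD, Gstm3 at 10.02 and 158 CPM in WT and 243 and 70.5 in DD and Gclc, the first enzyme of glutathione synthesis, at 501 and 1067 CPM in WT and 1736 and 762 in DD. The groups overlapped for each. NRF2 target scores were -0.43 in WT 1, 0.18 in WT 2, 0.41 in DD 1 and -0.16 in DD 2. The list's median of 0.32 over 22 genes was 0.35 with the length trend removed, 0.031 without WT 1, -0.038 without DD 1, 0.63 without WT 2 and 0.58 without DD 2. A few genes of this kind did separate the groups, in both directions. Of 31 genes of xenobiotic and selenium-binding proteins, 4 were higher and 4 lower at an unadjusted p under 0.05 (12.9% each, against 4.59% and 4.15% of coding genes). Without overlap, 7 were higher (22.6%, against 18.5%) and 5 lower (16.1%, against 19.3%). The genes that follow were higher in DD. Aldh3a2, which oxidises fatty aldehydes, was at 152 and 181 CPM in WT and 315 and 251 in DD (log2 fold change 0.77, SE 0.19), and Gsta1, another glutathione transferase, at 8.06 and 22.5 CPM in WT and 41.03 and 41.03 in DD (log2 fold change 1.41, SE 0.40). Adh7, the retinol-oxidising alcohol dehydrogenase of the stomach, had 0 and 1 counts in WT and 16 and 17 in DD.

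Antigen presentation and interferon genes were lower in DD, mainly against WT 1. Of 19 MHC genes tested, 0 were higher and 7 lower (36.8%, against 4.15% of coding genes) at an unadjusted p under 0.05. The median was -0.60, or -0.52 with the length trend removed, but -0.13 without WT 1. The non-classical class I gene H2-T23 was at 103 and 70.5 CPM in WT and 49.5 and 54.7 in DD (log2 fold change -0.74, SE 0.21), and the immunoproteasome subunit gene Psmb9 at 7.96 and 5.76 CPM in WT and 3.31 and 4.23 in DD (log2 fold change -0.86, SE 0.31). H2-K1, the most counted class I gene, was at 464 and 373 CPM in WT and 469.5 and 353 in DD and overlapped. Class II genes are mostly those of immune cells, and macrophage markers summed to 175 and 67.7 CPM in WT and 82.1 and 316 in DD, the order WT 1 and DD 2 above WT 2 and DD 1. The part of such cells in these differences was not tested.

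Of 22 interferon response genes, 0 were higher and 6 lower (27.3%, against 4.15% of coding genes) at an unadjusted p under 0.05. Irf1, an interferon-induced factor, was at 25.1 and 21.4 CPM in WT and 14.01 and 16.9 in DD (log2 fold change -0.59, SE 0.18), Ifi35 at 34.2 and 24.9 CPM in WT and 16.9 and 20.2 in DD (log2 fold change -0.67, SE 0.20) and Ifi27 at 247 and 114 CPM in WT and 85.9 and 101 in DD (log2 fold change -0.95, SE 0.32). Both DD libraries were below both WT libraries for these. Isg15, a ubiquitin-like modifier (chosen after its values were seen), was high in WT 1 alone, at 4.03 and 0.773 CPM in WT and 0.284 and 0.882 in DD. The median was -0.52, or -0.51 with the length trend removed, and -0.29 without WT 1. To show the element that many interferon-induced promoters share, the half-site GAAA repeated after a gap of 2 bases was searched on either strand of the same upstream windows and was found in 13 of 29 genes of the list (44.8%) against 3.32% of all coding genes. Stretches with a match are printed for Ifi27 (chr12:103400372-103400416, plus strand), Isg15 (chr4:156285324-156285373, minus strand) and Bst2 (chr8:71990217-71990266, minus strand), an antiviral membrane protein. They are given on the strand of the gene, with positions in GRCm39. Only the first match of each stretch is in capitals, and further matches in Isg15 and Bst2 are left in lower case.
Ifi27: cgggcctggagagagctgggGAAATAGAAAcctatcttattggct
Isg15: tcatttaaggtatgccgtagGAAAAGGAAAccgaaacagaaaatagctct
Bst2: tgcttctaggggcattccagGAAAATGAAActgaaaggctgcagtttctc
Bst2 stood at 71.8 and 44.7 CPM in WT and 42.2 and 39.5 in DD (log2 fold change -0.51, SE 0.23), with WT 2 nearer to the DD libraries than to WT 1.

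Several genes of epithelial innate defence were lower in DD. Of 20 genes 0 were higher and 8 lower (40%, against 4.15% of coding genes) at an unadjusted p under 0.05. The median was -0.66, or -0.55 with the length trend removed, -0.67 without WT 1 and -0.34 without WT 2. With Pglyrp1 and Tlr2 went Cd14, the lipopolysaccharide co-receptor, at 121 and 137 CPM in WT and 72.8 and 85.4 in DD (log2 fold change -0.71, SE 0.18). Lcn2, which binds bacterial siderophores, was at 5610.1 and 4826 CPM in WT and 3396 and 3724 in DD (log2 fold change -0.55, SE 0.19). Lyz2, a myeloid lysozyme, was instead high in DD 2, at 36.2 and 20.3 CPM in WT and 18.1 and 133 in DD. Of the neutrophil-attracting chemokines, Cxcl1 was at 9.14 and 32.8 CPM in WT and 1.99 and 7.11 in DD (log2 fold change -2.23, SE 0.71), Cxcl5 at 9.14 and 105 CPM in WT and 6.39 and 12.3 in DD (log2 fold change -2.63, SE 0.91) and Cxcl2 at 3.93 and 16.3 CPM in WT and 2.32 and 4.70 in DD (log2 fold change -1.55, SE 0.63). WT 2 was far above the other 3 libraries for each of these chemokines, and without WT 2 their log2 fold changes were -1.01, 0.031 and -0.17. Csf1, the macrophage growth factor, was at 16.4 and 15.8 CPM in WT and 21.9 and 60.7 in DD, highest in DD 2.

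Proteasome and ribosomal protein genes had list medians below 0, with few members past an unadjusted p of 0.05. Of 31 proteasome subunits, 24 did not overlap and were lower (77.4%, against 19.3% of coding genes), yet only 3 had an unadjusted p under 0.05. Psma1, a core particle subunit, was at 125 and 105 CPM in WT and 88.2 and 87.1 in DD (log2 fold change -0.39, SE 0.15). The median of -0.29 became -0.14 with the length trend removed, -0.14 without WT 1 and -0.17 without DD 1. Mitochondrial ribosomal proteins had 34 of 77 lower without overlap (44.2%, against 19.3% of coding genes). Their median was -0.25, or -0.14 with the trend removed, -0.11 without WT 1 and -0.09 without DD 1. Of the 77, 2 (2.60%, against 4.15% of coding genes) were lower at an unadjusted p under 0.05. For 81 cytosolic ribosomal proteins the medians were -0.32 and -0.17, and the first was -0.078 without DD 1, -0.14 without WT 1 and -0.56 without DD 2. Of these 81, 14 did not overlap and were lower (17.3%) and 1 had an unadjusted p under 0.05 and was lower, shares below those of all coding genes. These are short transcripts, with a median of 1096 bases for the cytosolic set. Among chaperones the small heat shock genes Hspb1 and Hspb8 were lower, at 259 and 189 CPM in WT and 148 and 128 in DD (log2 fold change -0.70, SE 0.24) and at 219 and 178 CPM in WT and 127 and 146 in DD (log2 fold change -0.54, SE 0.17), the 2 of 21 heat shock genes at an unadjusted p under 0.05. Map1lc3a and Map1lc3b, of autophagosomes, were at 130.4 and 103 CPM in WT and 80.5 and 83.1 in DD (log2 fold change -0.51, SE 0.17) and at 321 and 302 CPM in WT and 187 and 237 in DD (log2 fold change -0.56, SE 0.18). None of 36 lysosome genes passed an unadjusted p of 0.05.

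Growth and death genes were mixed. Of 35 cell cycle and replication genes only Mki67, a marker of cycling cells, passed an unadjusted p of 0.05, at 1.77 and 2.81 CPM in WT and 4.02 and 5.58 in DD (log2 fold change 1.05, SE 0.43), and the list's median of 0.23 was 0.22 with the length trend removed, -0.074 without DD 2, 0.084 without WT 2, 0.43 without WT 1 and 0.46 without DD 1. Targets of p53 had 1 higher (4.35%, against 4.59% of coding genes) and 5 lower (21.7%, against 4.15%) of 23. Gadd45a, a growth arrest gene, was at 59.3 and 44.7 CPM in WT and 34.4 and 27.3 in DD (log2 fold change -0.75, SE 0.20). Bbc3, which encodes the death inducer PUMA, was at 12.9 and 10.04 CPM in WT and 7.76 and 7.47 in DD (log2 fold change -0.58, SE 0.20). Casp9, the initiator caspase of the mitochondrial death pathway, was at 228 and 132 CPM in WT and 76.7 and 94.4 in DD (log2 fold change -1.07, SE 0.26), with WT 1 the highest. Cflar, an inhibitor of death receptor signalling, was higher at 9.92 and 13.1 CPM in WT and 18.6 and 18.99 in DD (log2 fold change 0.70, SE 0.19), as was Mlkl, the effector of necroptosis, at 6.29 and 7.24 CPM in WT and 12.3 and 10.2 in DD (log2 fold change 0.73, SE 0.22). Hmga2, a chromatin protein of embryonic and tumour cells, was at 1.08 and 3.30 CPM in WT and 5.02 and 7.11 in DD (log2 fold change 1.43, SE 0.47).

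The 2 DD libraries differed most in stromal genes. Among 9538 coding genes with a mean CPM of at least 5, DD 2 was at least 4-fold above DD 1 for 92 and at least 4-fold below it for none. Of 22 fibroblast and stellate markers 21 passed the filter, none of the 22 was at 0 in any of the 4 libraries, and 3 were higher in DD at an unadjusted p under 0.05. Col1a1 was at 31.9 and 10.5 CPM in WT and 15.9 and 252 in DD, Fn1 at 86.5 and 23.9 CPM in WT and 43.9 and 287 in DD and Sparc at 147 and 129.7 CPM in WT and 94.8 and 435 in DD. In each, DD 1 lay within or near the range of WT and DD 2 alone was high. The list's median of 1.82 was 1.76 with the length trend removed, 2.81 without WT 1 and -0.37 without DD 2. Macrophage genes had another order, with C1qa (named after its values were seen) at 19.6 and 1.62 CPM in WT and 2.08 and 22.8 in DD, so WT 1 and DD 2 shared it. Markers of T and NK cells summed to at most 1.67 CPM and of B and plasma cells to at most 5.30 CPM. The summed endothelial markers overlapped, from 201 to 332 CPM. Islet markers summed to 512 and 444 CPM in WT and 374 and 432 in DD, without overlap. Of 17 islet genes tested, 7 did not overlap and were lower (41.2%, against 19.3% of coding genes) and 2 did not overlap and were higher. The 2 at an unadjusted p under 0.05 were the hormone genes Pyy, at 9.82 and 3.09 CPM in WT and 1.51 and 2.59 in DD (log2 fold change -1.65, SE 0.55, or -0.58 without WT 1), and Ppy, at 4.52 and 0.843 CPM in WT and 0.426 and 0.823 in DD (log2 fold change -2.08, SE 0.81, or -0.43 without WT 1), both highest in WT 1. Msln, a mesothelial and tumour surface antigen, was at 7.76 and 8.43 CPM in WT and 14.2 and 32.6 in DD (log2 fold change 1.53, SE 0.36, or 0.81 without DD 2).

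**Figure D4:**
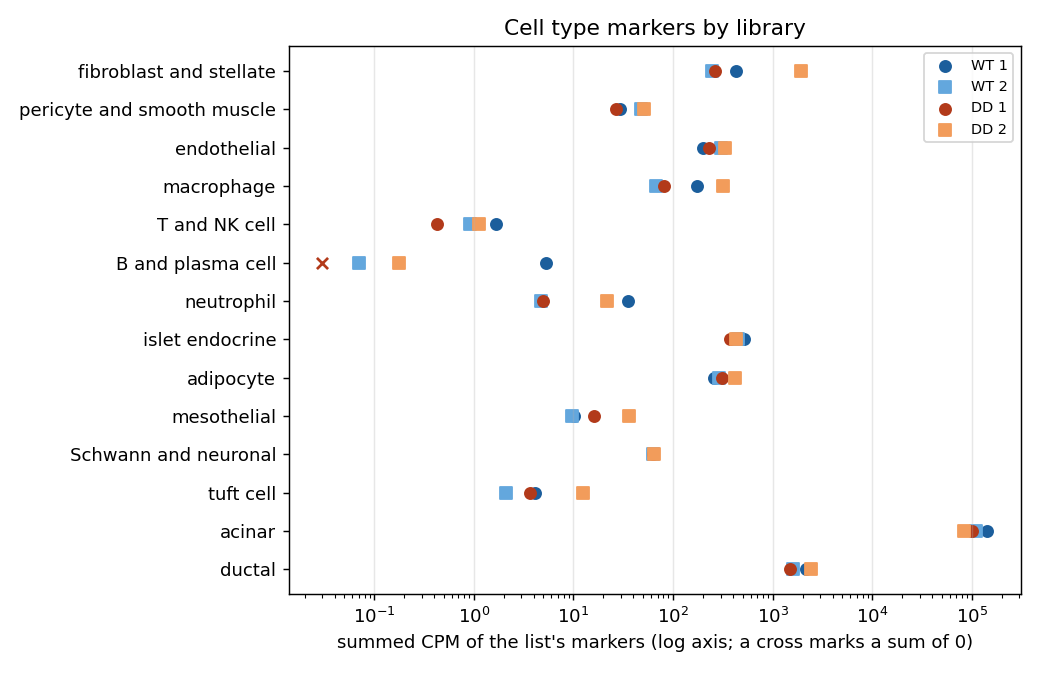
Summed CPM (x axis, log) of the markers of 14 cell types (y axis) in each library. Dark and light blue are WT 1 and WT 2, dark red and orange DD 1 and DD 2, and a cross marks a sum of 0. Fibroblast and stellate markers reach 1932 CPM in DD 2, and macrophage and neutrophil markers are high in WT 1 and DD 2.

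**Figure D5:**
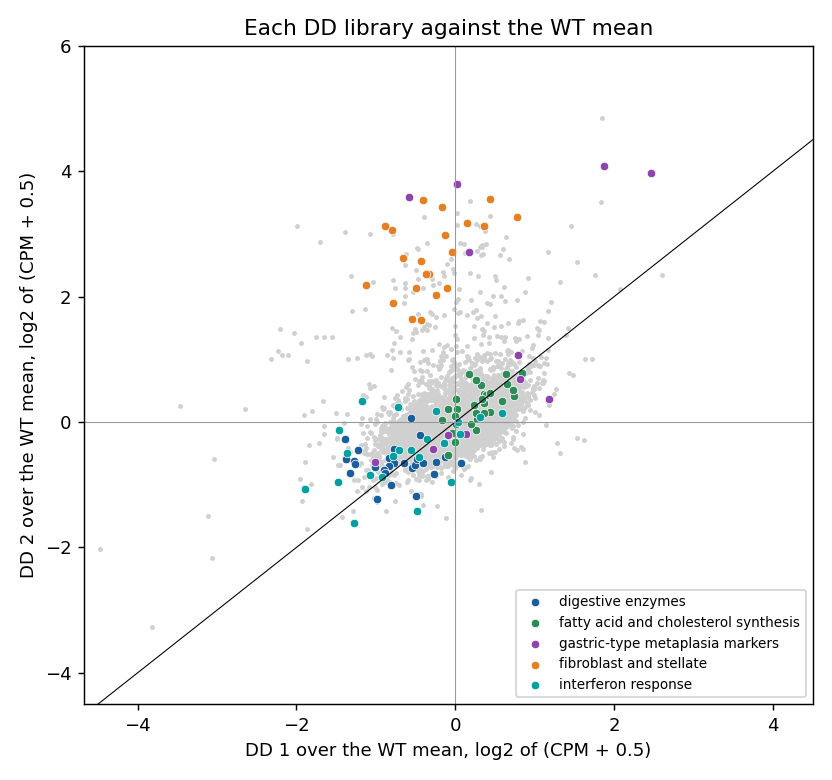
Log2 ratio of each DD library to the mean of the WT libraries, DD 1 on the x axis and DD 2 on the y axis, after adding 0.5 CPM, with coding genes of average log2 CPM of at least 2 in grey and all tested members of 5 lists in colour. Lipid synthesis genes sit mostly above 0 and enzymes below 0 on both axes, whereas fibroblast genes are high in DD 2 alone, with list scores of -0.89 in DD 1 and 2.26 in DD 2.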

How the data were processed

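Bulk RNA-seq of mouse acini was measured in 6 samples. Per the methods and the labels, the authors aligned strand-specific paired-end reads with STAR 2.7.9a to GRCm39 and the basic GENCODE M32 annotation, counted them per gene and deposited raw counts, which they tested with DESeq2 1.38.0. Here, edgeR 4.0.16 (R 4.3.3) kept 14738 genes by filterByExpr (minimum count 10, minimum total 15), scaled totals by TMM and fitted a quasi-likelihood model over 3 groups (residual degrees of freedom 3, prior 4.63), from which DD minus WT was taken. Changes are relative to TMM. P-values are two-sided and Benjamini-Hochberg adjusted over all genes tested. CPM used TMM totals, and log2 CPM a prior count of 2. Procedures were tested on simulated counts. Transcript lengths and sequences came from GRCm39 with GENCODE M39. Genes named are Dkk3, called genes, leading genes, those the study names and, per list, up to 3 with the smallest p in each direction and the most counted. The members and lists were chosen with earlier results of these data known. Alternatives were other scalings, filters, tests and left-out libraries. Spike-in rows (92, all at 0) were left out. Some genes and sequences are not reported here.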

Additional observations from a re-analysis of the deposited data

How the results depend on the processing

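The counts of called genes (2 higher and 4 lower in DD, 2 of them protein coding) depended most on the filter and the test. Without the low-count filter edgeR called 417 higher and 111 lower (485 coding), and DESeq2 called 49 higher and 28 lower (65 coding). The cause was not tested. With coding genes alone in the fit 1 was called higher and 1 lower, since the called genes that are not protein coding were left out. Leaving out 1 library gave 1 to 2 higher, 1 to 4 lower and 0 to 2 coding calls. The other alternatives, RLE size factors, library size alone, limma-voom, the 4 libraries of WT and DD alone and the removed length trend (chosen after seeing the data), stayed within 1.5 times of these counts. With the replicate number as a replicate block 3 were called higher and 4 lower (3 coding, Serpinb9b added). The numbers were not taken to pair WT with DD, since the labels name no shared animal, and same-numbered WT and DD libraries deviated in opposite directions (Pearson's r -0.387 across 14738 genes, which are not independent, and -0.247 for WT with the rDKK3 cultures). Same-numbered DD and rDKK3 libraries deviated together (r 0.65), so these may not be independent cultures, and the spread estimated over 6 libraries may rest on fewer. With the 4 libraries of WT and DD alone 2 genes were called higher and 4 lower. Acsm3 and Selenbp2 kept their direction in all 15 alternatives. Of the other genes given with a fold change, Krt19 ranged from -0.29 without WT 2 to 0.54 without WT 1 (-0.041 without DD 2), Jun from -0.075 without WT 1 to 0.53 without WT 2, and Cxcl5 from -3.48 without WT 1 to 0.031 without WT 2. With totals unscaled by TMM, the median of all genes moved from 0.016 to 0.22, and relative to that shift each list median kept its side except that of pericyte and smooth muscle markers. A prior count of 0.5 in place of 2 moved the difference between DD 2 and DD 1 of no list score by more than 1 SD. At these depths 3 counts were between 0.142 and 0.295 CPM, and Dkk3, with 1 to 11 counts in WT and DD, did not pass the filter (without it edgeR gave a log2 fold change of 0.16, SE 0.73, adjusted p 1).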

Other observations

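Other gene groups were mixed. At an unadjusted p under 0.05, 2 of 15 iron handling genes (13.3%) and 3 of 27 ribosome biogenesis and Myc genes (11.1%) were higher. So were 4 of 26 histone and chromatin genes (15.4%), against 4.59% of all coding genes. Lower at that threshold were 1, 0 and 1 genes of these lists. Of 18 circadian clock genes 0 were higher and 2 lower at an unadjusted p under 0.05, and the output factor gene Dbp was at 9.43 and 7.87 CPM in WT and 5.44 and 5.29 in DD (log2 fold change -0.68, SE 0.24). Among 15 iron handling genes, Ncoa4, which delivers ferritin for breakdown, was at 47.5 and 49.1 CPM in WT and 73.6 and 59.5 in DD (log2 fold change 0.46, SE 0.16) and Trf, transferrin, at 125 and 174 CPM in WT and 109.8 and 99.3 in DD (log2 fold change -0.51, SE 0.20). Fth1, ferritin heavy chain, was close between the groups though without overlap, at 3011 and 2896 CPM in WT and 3078 and 3031 in DD. Of 14 metallothionein and zinc transporter genes only Slc39a5, a zinc importer, passed that threshold, at 30.6 and 23.9 CPM in WT and 19.2 and 20.9 in DD (log2 fold change -0.44, SE 0.17). Of 30 splicing genes only Esrp2, an epithelial splicing factor, did, at 36.7 and 46.01 CPM in WT and 62.04 and 54.5 in DD (log2 fold change 0.49, SE 0.17). In the list of 27 ribosome biogenesis and Myc genes, Mxd1, a Myc antagonist, was at 4.52 and 7.87 CPM in WT and 10.4 and 14.1 in DD (log2 fold change 0.96, SE 0.32) and the nucleolar gene Nop2 at 36.05 and 39.2 CPM in WT and 52.6 and 45.1 in DD (log2 fold change 0.38, SE 0.15). Eif4g1, a scaffold of the cap-binding complex, was the only 1 of 24 translation factors past the threshold, at 221 and 288 CPM in WT and 392 and 344 in DD (log2 fold change 0.53, SE 0.19). Cdk4, a cyclin D kinase, was lower in both DD libraries, at 185 and 139 CPM in WT and 112 and 126 in DD (log2 fold change -0.44, SE 0.18), and Dnmt1, the maintenance DNA methyltransferase, was higher in both, at 9.63 and 12.3 CPM in WT and 16.4 and 15.9 in DD (log2 fold change 0.55, SE 0.19). None of these was called after adjustment over all genes. Of 26 genes of the IL6, JAK and STAT3 pathway, Lcn2 was the only 1 at an unadjusted p under 0.05, and Socs3, the feedback inhibitor, was at 28.2 and 31.4 CPM in WT and 29.01 and 53.6 in DD, highest in DD 2.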
